A study of Mus musculus with 12 samples.

Results

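The clustered protocadherin genes were followed through the list of poly(A) sites (PASs) that was built from 3′READS of mouse hippocampal slices. Every entry whose gene symbol starts with Pcdha, Pcdhb or Pcdhg was taken. These were 227 entries under 58 gene symbols. A PAS listed under several genes was counted once, which left 107 distinct PASs out of the 55813 distinct PASs of 16627 listed genes. The study sequenced 3′ ends of transcripts in 12 libraries of 4 groups, with 3 animals in each. Mini-slices of the hippocampus, with the dentate gyrus trimmed off, came from wild-type mice of the strain C57BL/6 aged 3 months, and slices of the same animal were divided between treatments. LTP slices were perfused with 50 uM forskolin and then with forskolin, 30 mM KCl and 10 mM Ca2+, over 10 min in all, and were frozen 1 hr or 3 hr later. Control slices received 0.2% DMSO for 10 min and were frozen at the same times. The names of the read columns match no sample label, so no reads were compared between groups. Reads summed over all columns, which need no label, were not used either. What follows is the inventory of cleavage sites, 1 list made for all libraries together, and a site need not have been found in each of them. It says nothing of how much a site was used or of any change after LTP. The reads behind a site were not analysed here, and the values below have no replicate error. The list was taken whole, with no minimum set on reads or on the share of a gene's transcripts that end at a site, so rarely used sites count as much as frequent ones. The paper's own counts of PASs used such minimums and left out outlier samples, and they were smaller than this list.

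Clustered protocadherins are cadherin-family adhesion proteins of the neuronal surface. They lie in neighbouring arrays called alpha, beta and gamma. In the alpha and gamma arrays each gene has its own large first exon with its own promoter. This variable exon is spliced to a set of small constant exons that all genes of the array share, so that proteins with different outsides carry the same cytoplasmic tail. The beta genes have no such constant exons, and each is largely 1 exon. Neurons express different combinations of these genes, and the proteins bind their own kind on other membranes, which lets a neuron tell its own branches from those of others. The 3′ end of a transcript is made by cleavage and polyadenylation at a PAS, which can lie in the last exon or further upstream, for example in an intron.

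All members lay on chromosome 18, and their genes on the plus strand. Positions are printed as deposited, and the build named in the submitters' processing notes is mm9. From the alpha PAS at 37347315 to the last gamma PAS at 38001612, the distance was 654297 nt. The arrays differed in how their PASs were divided among genes. The 14 alpha genes had 1 PAS between them, the 21 beta genes had 89 PASs and shared none, and the 22 gamma genes had 17, of which 5 were shared and 12 belonged to a single gene. The last symbol, Pcdha4-g, begins like an alpha gene but was listed at the gamma PASs and is described with them. No sequence of these sites is shown.

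The alpha genes, Pcdha1 to Pcdha12 with Pcdhac1 and Pcdhac2, each had 1 entry, and it was the same PAS, at 37347315 and labelled exon3. The label exon3 was read as the 3′-most exon. Pcdhac2, known for its role in the spacing of serotonergic axons, was thus listed with the same end as the alternately used Pcdha1 to Pcdha12. None of the 14 genes had an intronic PAS, an upstream antisense PAS or any other site of its own. In GENCODE vM21, an annotation of the later build GRCm38, 13 of the 14 symbols were found. All 13 have a transcript of 4 exons, and all 13 have the same start of the last exon. A read at this PAS does not tell which alpha gene it came from.

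The beta array held most of the distinct sites, 89 of 107. The genes Pcdhb2 to Pcdhb22 were listed, and the positions of all 21 followed the order of their numbers. No site was listed under the symbol Pcdhb1, so the array is described here by its listed genes only. All 21 have a transcript of 1 exon in GENCODE vM21, and for 17 it is the only kind. Pcdhb2, Pcdhb6, Pcdhb8 and Pcdhb22 also have a transcript of 2 exons. All beta PASs carried the labels of single-exon genes. The label exon53, read as an exon that is both first and last, was given to 62 of them, and exon53ext, read as the sequence beyond the annotated end, to 27. No beta PAS had an intronic or antisense label.

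Beta genes differed widely in their number of PASs. Pcdhb10 had 1 PAS, 7 genes had 2, 3 genes had 3 and 4 genes had 4. The other 6 genes had 5 or more, and together they held 49 PASs, or 55.1% of the array. Pcdhb14 had the most, with 12 PASs. It was followed by Pcdhb2 with 10 and Pcdhb16 with 9, while Pcdhb4, Pcdhb19 and Pcdhb22 had 6 each. Neighbouring genes could lie far apart in this respect: Pcdhb13 and Pcdhb15, on either side of Pcdhb14, had 2 PASs each, and so did Pcdhb17, next to Pcdhb16.

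**Figure D1:**
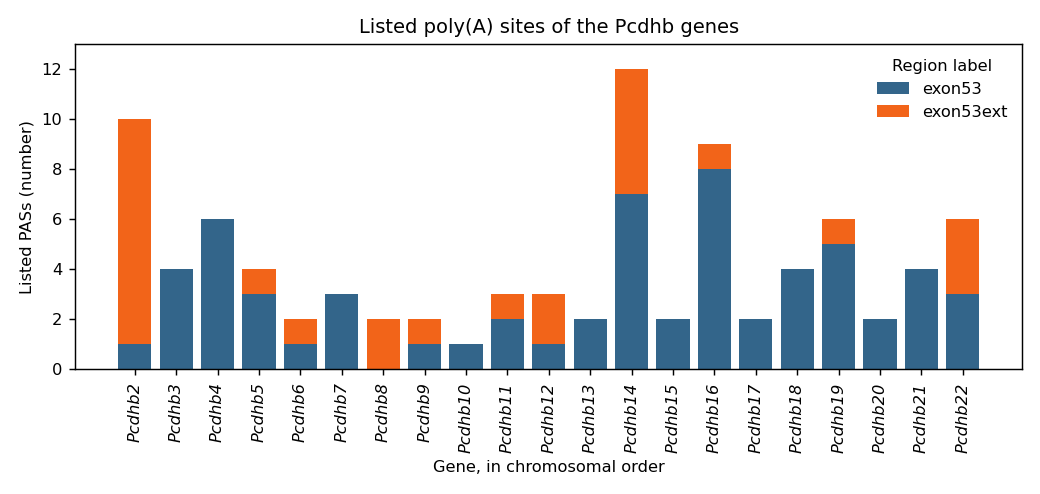
Number of listed PASs (y axis) of each beta gene in chromosomal order (x axis), stacked by region label. Pcdhb14 with 12 PASs and Pcdhb2 with 10 stand above the other genes, and 9 of the 10 sites of Pcdhb2 carry the label exon53ext.

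Sites labelled exon53ext were found in 11 of the 21 beta genes, and they were unevenly spread. Pcdhb2 alone had 9 of the 27, followed by Pcdhb14 with 5 and Pcdhb22 with 3. In Pcdhb2, 1 PAS was labelled exon53 and the other 9 followed at 474 to 2732 nt beyond that PAS. In Pcdhb14, 7 PASs labelled exon53 spanned 955 nt, and a stretch of 1329 nt separated them from the 5 labelled exon53ext. Pcdhb8 had 2 PASs, and neither was labelled exon53. In the 10 genes with both labels, the first exon53ext PAS lay a median of 267 nt beyond the last exon53 PAS, with a range from 82 nt in Pcdhb6 to 2148 nt in Pcdhb19. The last one lay a median of 653 nt beyond it, and at most 2732 nt. The other 10 genes, among them Pcdhb3, Pcdhb4 and Pcdhb18, had exon53 sites alone. The 4 genes that also have a transcript of 2 exons all had exon53ext sites, 9 in Pcdhb2, 3 in Pcdhb22, 2 in Pcdhb8 and 1 in Pcdhb6. The remaining exon53ext sites were in genes with only single-exon transcripts. Positions were not set against annotated ends, so whether any of these sites lies in a longer annotated transcript was not tested.

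Within a beta gene, the PASs lay close together. Over the 68 pairs of neighbouring sites, the median distance was 220 nt, and the middle of the distribution reached from 74 nt (25th percentile) to 463.5 nt (75th percentile). In 23 pairs, or 33.8%, the distance was at most 100 nt. The closest pairs, at 33 nt, were in Pcdhb5 and Pcdhb16. The authors had joined sites within 24 nt of each other. The widest pair, 2518 nt, was formed by the first and second sites of Pcdhb18. The outermost PASs of a gene lay a median of 621.5 nt apart over the 20 genes with at least 2 sites. The span was 64 nt in Pcdhb15 and 74 nt in Pcdhb13, but 3821 nt in Pcdhb18, 4023 nt in Pcdhb19 and 4133 nt in Pcdhb16. Pcdhb16 and Pcdhb19 reached these spans with a lone distal exon53ext site each, 1585 and 2148 nt past the last exon53 site, whereas the PASs of Pcdhb18 all carried the label exon53.

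**Figure D2:**
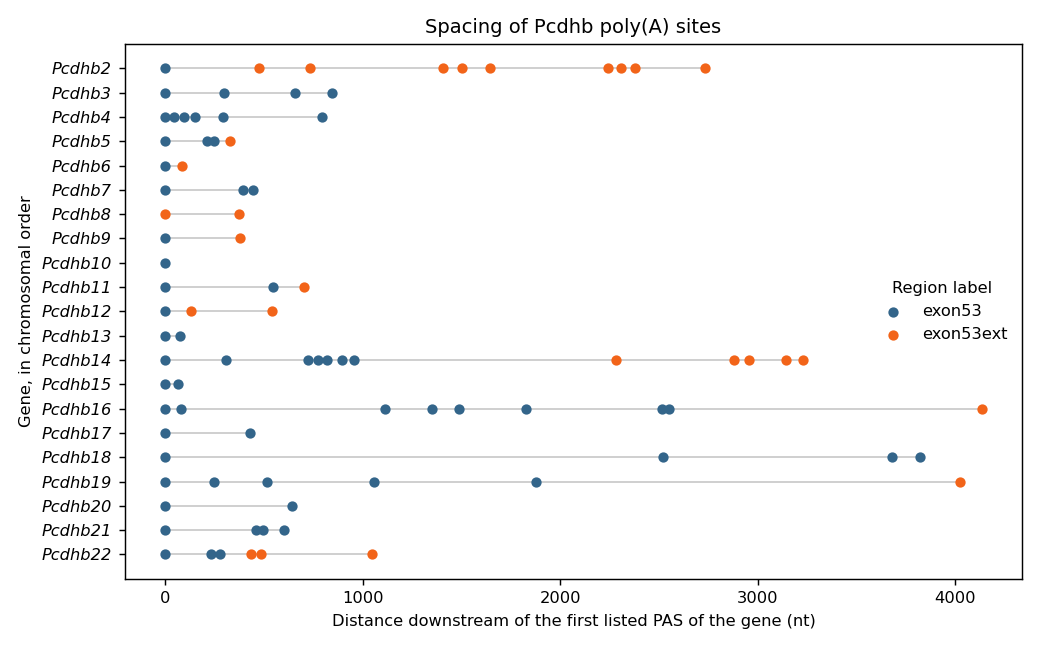
Distance of each listed PAS from the first PAS of its gene (x axis, nt) for the beta genes in chromosomal order (y axis), coloured by region label. The longest rows are those of Pcdhb16 (4133 nt), Pcdhb19 (4023 nt) and Pcdhb18 (3821 nt), and the exon53ext sites form a separate group in Pcdhb14.

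The space between beta genes was mostly larger than that between the sites of a gene. It takes in most of the next gene, so a larger distance follows from the layout of the array. From the last PAS of a beta gene to the first PAS of the next, the median distance was 7097 nt over 20 pairs of adjacent genes. It was smallest between Pcdhb17 and Pcdhb18, at 2387 nt, and largest between Pcdhb8 and Pcdhb9, at 45304 nt. The smallest of these distances was below the widest distance between sites of 1 gene, 2518 nt in Pcdhb18. The exon53ext site of Pcdhb19 lay 2980 nt before the first PAS of Pcdhb20, and those of Pcdhb2 ended 3422 nt before the first PAS of Pcdhb3. No PAS of another gene was listed within the beta array, which measured 224655 nt from its first to its last PAS. Beta genes are close relatives in sequence, and how the authors treated reads that map to several places is not given in the sources used here.

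Beside other single-exon genes, beta genes were listed with more PASs. The comparison took the 565 other genes with at least 1 site labelled exon53 or exon53ext and left out upstream antisense sites. The median was 3 PASs per beta gene against 2 in these genes. At least 2 PASs were listed for 20 of 21 beta genes (95.2%) and for 303 of the 565 others (53.6%). At least 5 were listed for 6 beta genes (28.6%) and for 86 others (15.2%), and at least 10 for 2 beta genes (9.52%) and 8 others (1.42%). A site labelled as beyond the annotated end was listed for 11 beta genes (52.4%) and 125 others (22.1%). The beta genes held 5.09% of all exon53 entries of the list and 10.0% of all exon53ext entries. The distances between neighbouring sites were alike, with a median of 220 nt in beta genes and 227 nt over 833 pairs in the others, and 33.8% against 30.6% of pairs within 100 nt. The order depended on the genes set beside them and on the measure. The 12 protocadherins outside the arrays also had a median of 3 PASs. Their shares with at least 5 (4 genes, 33.3%) and at least 10 (2 genes, 16.7%) were above those of the beta genes. Other measures went the opposite way. At least 2 PASs were listed for 9 of these 12 genes, and a site labelled as beyond the annotated end for 3. Over all listed genes the shares with at least 5 and at least 10 were 21.5% and 4.36%, with a median of 2 PASs. At least 2 were listed for 64.4% of all listed genes, and a site labelled as beyond the annotated end for 13.1%. These are counts over lists of sites and no test was made on them. The number of reads per gene was not set beside them.

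The gamma genes shared 5 PASs in their last constant exon and beyond it. In the order of transcription they lay at 38000979, 38001413, 38001470, 38001527 and 38001612. The first was separated by 434 nt from the second, and the rest followed at 57, 57 and 85 nt, so that the last 4 sites spanned 199 nt and all 5 spanned 633 nt. The last 4 sites were each listed under all 22 gamma genes and under Pcdha4-g, 23 symbols in all, and their sets of genes were identical. The first was listed under 20 symbols. It was not listed under Pcdhgb2, Pcdhgc3 and Pcdhgc5, which are 3 of the 7 gamma genes with an intronic PAS. The other 4 genes with an intronic PAS, and all 15 without such a PAS, had it. This is a difference in the symbols under which the site was listed. The site lies in the exon that all gamma genes share, and its reads cannot be assigned to a gene. Its absence under a symbol therefore does not show that transcripts of that gene do not end there. Why these symbols lack the site was not tested.

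The region labels of these sites differed by gene symbol. Under the gamma genes, the first 4 shared PASs were labelled exon3 and the last exon3ext. Under Pcdha4-g, all 5 were labelled exon3ext. Pcdha4-g is a synonym of Gm37013 in the RefSeq genes and was not found among the Ensembl gene names. All 22 gamma genes have a transcript of 4 exons in GENCODE vM21, and all 22 have the same start of the last exon. Pcdhgb8, annotated there as a polymorphic pseudogene, was listed with the same 5 PASs as its neighbours. Pcdhgc4, a gene needed for the survival of neurons, also had the 5 shared PASs and no other. As in the alpha array, a read at a shared site does not tell which variable exon it was joined to.

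**Figure D3:**
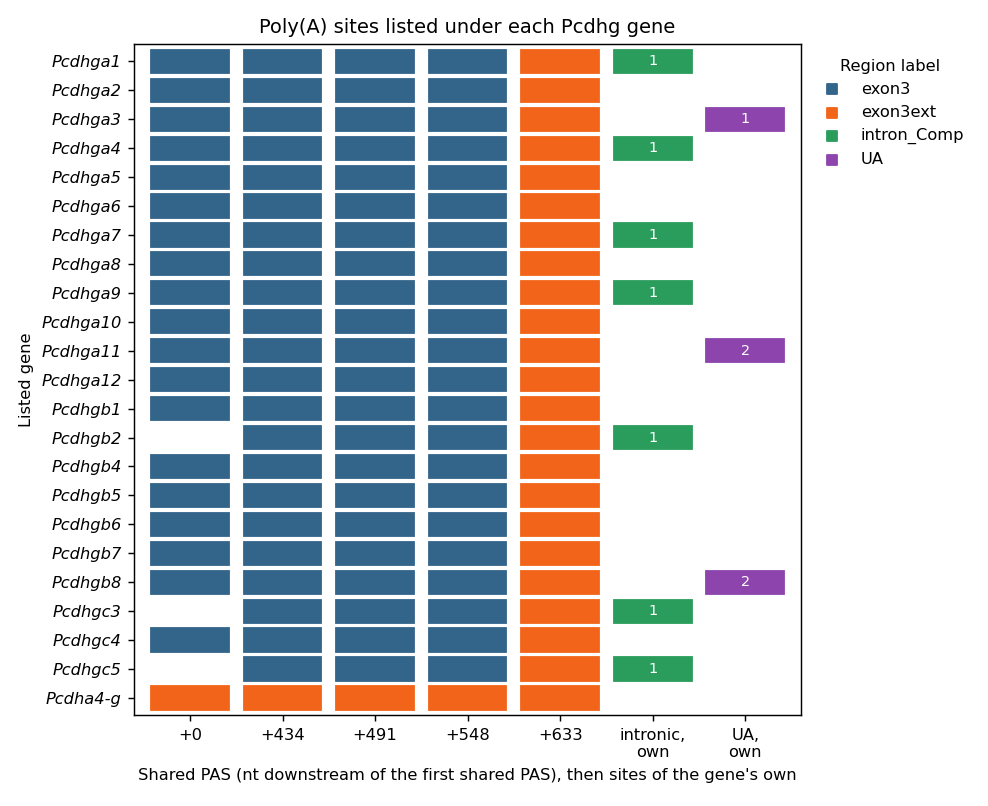
PASs listed under each gamma gene and under Pcdha4-g (rows). The first 5 columns are the shared PASs, named by their distance in nt from the first, and the last 2 columns give the number of intronic and upstream antisense (UA) sites of the gene's own. The first shared site is missing under Pcdhgb2, Pcdhgc3 and Pcdhgc5, and no gene has both an intronic and a UA site.

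Sites listed under a single gene were found in 10 of the 22 gamma genes. An intronic PAS was listed for 7 of them, each with 1 site labelled intron_Comp, read as an intronic site in an exon extended past its splice site. They were 4 of the 12 A type genes (Pcdhga1, Pcdhga4, Pcdhga7 and Pcdhga9), 1 of the 7 B type genes (Pcdhgb2) and 2 of the 3 C type genes (Pcdhgc3 and Pcdhgc5). Pcdhgc3 is known to promote the branching of cortical dendrites. The sites lay at 37825991 in Pcdhga1, 37847539 in Pcdhga4, 37852097 in Pcdhgb2, 37879230 in Pcdhga7, 37901322 in Pcdhga9, 37974485 in Pcdhgc3 and 37983299 in Pcdhgc5. A transcript that ends at such a site lacks the shared last exon. Where other gamma genes start upstream of such a site, they reach past it to the shared exons. There the symbol alone does not tell whose transcript ended at the site. The site of Pcdhga1 was the first listed in the array. Gene starts were not set against the sites, so how many genes reach past each was not counted. None was labelled intron_Skip, the label read as a separate terminal exon.

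Intronic gamma sites lay far from the shared end. Their distance upstream of the first shared PAS was 174988 nt in Pcdhga1, 153440 nt in Pcdhga4, 148882 nt in Pcdhgb2 and 121749 nt in Pcdhga7. It was 99657 nt in Pcdhga9, 26494 nt in Pcdhgc3 and 17680 nt in Pcdhgc5. The median over the 7 sites was 121749 nt. Over the 11294 intron_Comp sites upstream of the first exon3 PAS in all other genes, the median was 20143 nt, between quartiles of 7253.75 and 56590.8 nt. Of these, 11.4% lay at least as far upstream as the median gamma site, and 53.4% at least as far as that of Pcdhgc5. The 7 sites share 1 end point, so their distances follow the order of the variable exons and are not independent of each other.

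**Figure D4:**
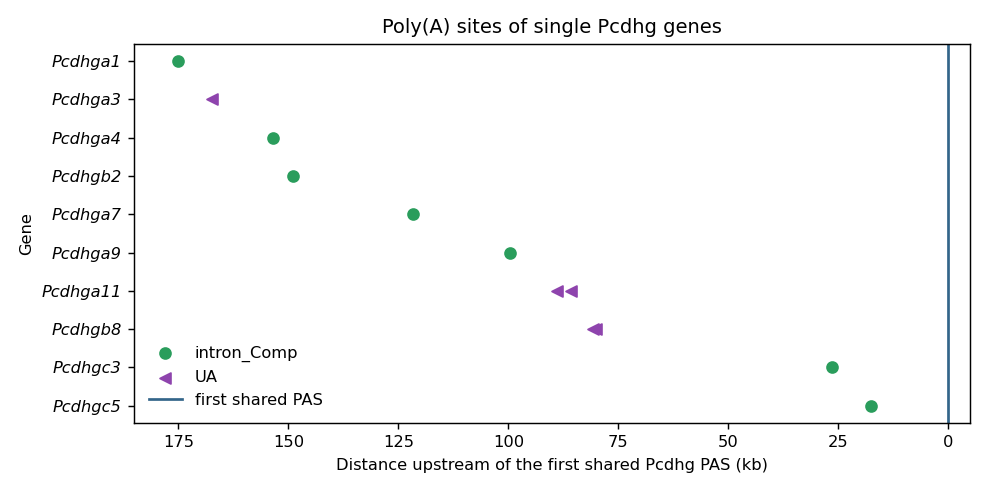
Distance of the 12 PASs listed under a single gamma gene (y axis, in chromosomal order) upstream of the first shared PAS (x axis, kb), with intronic sites as circles and upstream antisense sites as triangles. Intronic sites reach from 17680 nt in Pcdhgc5 to 174988 nt in Pcdhga1.

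Upstream antisense PASs, labelled UA, mark transcripts that run away from a promoter on the opposite strand. The gamma array had 5 of them in 3 genes, all named on the minus strand. Pcdhga3 had 1, at 37833551. Pcdhga11 had 2, at 37911946 and 37915282, 3336 nt apart, and Pcdhgb8 had 2, at 37920176 and 37920900, 724 nt apart. The sites of Pcdhga11 and Pcdhgb8 were next to each other, with 4894 nt between them. None of the 3 genes had an intronic PAS. With such a PAS in only 7 of the 22 gamma genes, this lack of overlap rests on few genes. It was not tested or set beside the share over all listed genes. The remaining 12 gamma genes had shared PASs alone, among them Pcdhga2, Pcdhga5, Pcdhgb1 and Pcdhgc4.

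The arrays were set apart by stretches with few sites. Between the alpha PAS and the first beta PAS, which is that of Pcdhb2, 109874 nt held no listed PAS. Only listed sites were looked at, so these stretches may hold genes without a listed PAS, such as Pcdhb1. Between the last beta PAS and the first gamma PAS, 144147 nt held 4 PASs, all on the minus strand, 1 of the mitochondrial carrier gene Slc25a2 and 3 of Taf7, a subunit of the general transcription factor TFIID. Within the gamma array, 175621 nt from its first to its last PAS, no PAS of another gene was listed. The nearest site downstream was an exon3 PAS of Diap1 on the minus strand at 38004574, 2962 nt past the last gamma PAS. Transcripts of Diap1, a regulator of actin filament assembly, and those of the gamma genes were thus listed as ending towards each other.

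Counting by gene and counting by site gave different pictures of the family. Of the 107 distinct member PASs, 6 (5.61%) were listed under more than 1 gene, against 265 (0.475%) of all listed PASs. These 6 sites made up 126 of the 227 member entries (55.5%) and 19.2% of the 656 entries of shared PASs in the whole list. Outside the family, no PAS was listed under more than 8 genes. At least 2 PASs were listed for 43 of the 58 member symbols (74.1%), where the share was 67.1% over all listed genes. Of the 43, the 22 gamma genes and Pcdha4-g owed at least 4 of their sites to the shared end. Without shared PASs, 31 of the 58 symbols kept a site of their own, and these were the 21 beta genes and 10 gamma genes.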

How the data were processed

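Poly(A)+ RNA from mouse hippocampal slices had been sequenced by the authors with 3′READS+ in 12 libraries. They mapped reads with bowtie 2, took reads with at least 2 unaligned Ts at the 5′ end as marks of PASs and joined PASs within 24 nt. The submitters' processing notes name mm9. The deposited table gives 6 columns on each site (gene symbol, identifier, chromosome, strand, position, region label), which the authors had made for all libraries together. Its 12 columns of read counts were not assigned to samples, since their names match no sample's labels, and they were not summed either. The tests of LTP against control slices planned on them were not run, and no value below is a read count.

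Sites, genes and distances in nt were counted in Python (version 3.11.15) using pandas (2.3.3) together with numpy (2.4.6), after a test of the code on a simulated list, and plotted with matplotlib (3.10.9). A site was called shared when listed under at least 2 genes. Region labels are not defined in the sources used here, and their meaning was read from their names. Of the 58 symbols, 56 matched the Ensembl gene names and 57 the Ensembl or RefSeq names. GENCODE vM21 (GRCm38) served for names, transcript types and exon numbers, and to see whether genes have the same start of the last exon. Its coordinates were compared only with each other. None was converted or set against the position of a PAS, and no sequence was read. Every member gene could be named by the rule for named genes. The members and lists were chosen with earlier results of these data known. A 95% Wilson interval from scipy 1.17.1, which covers counting error only, decided whether a share had moved under another setting.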

Additional observations from a re-analysis of the deposited data

How the results depend on the processing

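The number of member PASs was 107, and 102 without sites labelled UA. It moved to 227 when entries were counted in place of distinct sites, and to 67 with exon3 and exon53 sites alone, by the construction of these settings. The number of shared PASs was 6 under every setting tried, which were a minimum of 3 genes and the removal of UA sites. Neither setting could change it, since each of the 6 was listed under at least 14 genes and none was labelled UA. The median distance between neighbouring PASs of an array was 424 nt, 395 nt without UA sites and 282 nt over pairs of the same gene alone, which leaves out the distances between genes. The share of member symbols with at least 2 PASs was 74.1%, the same without UA sites and 71.0% of the 31 symbols with a site listed under a single gene. Over all listed genes it was 67.1%, 66.9% over sites of a single gene, 64.4% without UA sites and 74.9% over chromosome 18 alone. By the interval, the share over all listed genes moved without UA sites and over chromosome 18 alone, and the other shares did not move. As a plain value, the members' share was above the share over all listed genes and slightly below that of their own chromosome. No test was made of these differences. No paired analysis was possible because a read column was assigned to a sample only on its name, and none of these names matches a label. For the same reason the other settings intended for read counts (replicate block, another count test and its normalization, no filter on low counts, leaving out each replicate) were not run. All counts give each site the same weight, whatever its reads.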

Other observations

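The 12 protocadherin genes outside the arrays had 53 PASs without UA sites, a median of 3 per gene and a range from 1 to 12, and none was shared. An intronic PAS was listed for 6 of the 12. Pcdh15, known for its part in the tip links of hair cells, had 12 PASs, of which 9 were intronic, and Pcdh11x had 11, of which 9 were intronic. Pcdh20 had 6 PASs, all labelled exon3. Pcdh19, a gene of the X chromosome linked to epilepsy, had 1.

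Genes whose products act on the arrays or on their proteins were looked up as well, with UA sites left out. Of 11 factors of chromatin architecture and silencing at the arrays, 10 were found under the symbols used, with a median of 2.5 PASs and none shared. Ctcf and Rad21, which encode the insulator protein and a cohesin subunit that join promoters of the arrays to their enhancers, had 1 PAS each. Nipbl, the cohesin loader, had 9, of which 8 were intronic. All 7 genes for partners of the cytoplasmic domains were found, with a median of 2 PASs and none shared. Ptk2 had 2 PASs and Ptk2b had 1, and both encode kinases bound by the common cytoplasmic tail. Nckap1, a subunit of the WAVE complex, had 18, of which 17 were intronic and none was labelled exon3.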
